A study of Mus musculus with 4 samples.

Results

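Integrins and the cytoplasmic proteins of focal adhesions were examined as 41 genes, read by 96 of the 41174 probes outside the controls on each array. The members were the 25 genes whose array name follows the pattern of an integrin alpha or beta subunit (58 probes) and 16 listed focal adhesion genes (38 probes), of 21512 gene symbols on the arrays. The rule that picked them used gene names and no measured value, though earlier results of these data were known when the choice was made. The alpha subunit gene Itgad was not analysed here.

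Integrins are cell surface receptors made of 1 alpha and 1 beta subunit, and the pair decides which matrix protein a cell can hold. Inside the cell, talin and kindlin bind the beta tail, vinculin links talin to actin, and the complex of integrin-linked kinase (ILK), PINCH and parvin forms a further bridge to the cytoskeleton. Focal adhesion kinase, paxillin and p130Cas carry the signal onward, and in fibroblasts these contacts report how widely a cell is spread.

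Mouse embryonic fibroblasts (MEFs) are connective tissue cells grown out of dissociated embryos. Those used here came from C57BL/6J mice with the genotype given as Lats2-/- (labelled KO) or Lats2+/+ (labelled WT), both grown in DMEM with 10% inactivated fetal bovine serum, penicillin and streptomycin. Low density cultures were sampled after 48 hours while subconfluent and high density cultures after 3 to 5 days, so that time in culture changes together with density. For each genotype, RNA of both densities was put on 2 two-colour arrays with exchanged dyes, which read the same pair of conditions again and count as 1 replicate. The number of embryos behind each genotype is not given in the sources used here. The question of the design is how the response to contact differs between the genotypes.

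Each genotype and density was therefore 1 sample, no difference could be tested, and genes were called by size alone. A member was called when the mean of its repeated log2 ratios, one from each array or dye, reached 1 in size (2-fold) and neither ratio had the opposite sign. Over all genes, the SD between the repeated values of a gene was 0.143 for the density ratio of the labelled WT cells, 0.196 for that of the labelled KO cells, and 0.153 and 0.192 for the genotype differences at low and high density (log2). This error is technical and leaves out the spread between cultures.

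The Lats2 signal went against the genotype label: 3 of 4 Lats2 probes were higher on the labelled KO arrays, by 0.91 to 1.49 on the log2 scale over both densities, and 1 was lower, by -0.63 and -1.26. Where these probes lie relative to the deletion is not given in the sources used here, and the blot of Lats2 protein in these MEFs, which the study presents as its check of the knockout, was not analysed here. Both labelled WT arrays were on 1 slide and the labelled KO arrays on 2 other slides scanned on other days, so slide and genotype cannot be told apart. In the 8 channels, 52.8% to 67.7% of the features exceeded background by the scanner software's flag, called well above background here, and none was saturated. Array 1 of the labelled KO cells had 67.7% and 62.6%, and the other arrays had at most 56.2%. Of 9 fibroblast markers, 8 or 9 were well above background in each RNA, and their summed signal went from between 409911 and 470938 at low density to between 482628 and 546378 (labelled WT) and between 769290.5 and 1017761 (labelled KO) at high density. The 9 did not all move the same way with density. By the size rule given above, 4 were higher and 1 lower (Thy1, -1.18) in the labelled WT cells, beside 10.2% and 6.64% of all genes. In the labelled KO cells 5 were higher and 1 lower (S100a4, -2.46), beside 7.54% and 4.22%. Of 10 leukocyte markers, Ptprc, Cd53, Laptm5, Tyrobp and Adgre1 were not well above background in any RNA, while Fcer1g, Cd68, Coro1a and Cd14 were in both dyes of every RNA and Csf1r in all but that of the labelled WT cells at high density. Cd14 was the brightest of them, at a mean of 9.14 in the labelled WT cells at low density.

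Most members were measured. The brightest probe of 29 of 41 genes was well above background in all 8 channels, and 31 genes could be compared in all 5 contrasts. No contrast could be made for 7 genes, the collagen receptor subunits Itga2 and Itga10, the epithelial subunit Itgb6 and the leukocyte subunits Itgae, Itgal, Itgam and Itgax. Their brightest probes read 5.89 to 6.90 (normalized log2 intensity, mean of both arrays) in the 4 RNAs, and those of Itga2 and Itgam were well above background in none of 8 channels.

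More members fell than rose at high density in the labelled WT cells. Of 33 members measured there, 1 was called higher and 9 lower at high density, among 10.2% of all measured genes called higher and 6.64% lower. Among the integrins the called genes were 1 higher and 6 lower of 17, and among the focal adhesion genes 0 higher and 3 lower of 16. The median log2 ratio was -0.42 over the members, between -0.68 and -0.22 under the alternatives, and 0.06 over all genes. In bulk RNA, fewer cells of a type and less RNA per cell cannot be told apart.

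Calls in the labelled KO cells went in both directions. Of 32 members, 4 were called higher and 5 lower at high density, among 7.54% of all genes called higher and 4.22% lower, with a median of -0.15 over the members and 0.05 over all genes. With median centring in place of loess these counts were 3 and 7 and the members' median -0.44, while without KO replicate 1 the median was -0.068. All 4 genes called higher were integrin alpha subunits (Itga4, Itga8, Itga9 and Itga11). The genotypes shared 4 calls, Itga9 (higher) and Itga6, Itga7 and Bcar1 (lower), which are 4 of 10 calls of the labelled WT cells and 4 of 9 of the labelled KO cells. Over all genes 35.4% and 49.6% of the calls were shared in the same direction. Of the 4, Itga9 was called in both genotypes under every alternative with the 2-fold size, and each of the others was lost in 1 genotype under 1 alternative.

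**Figure D1:**
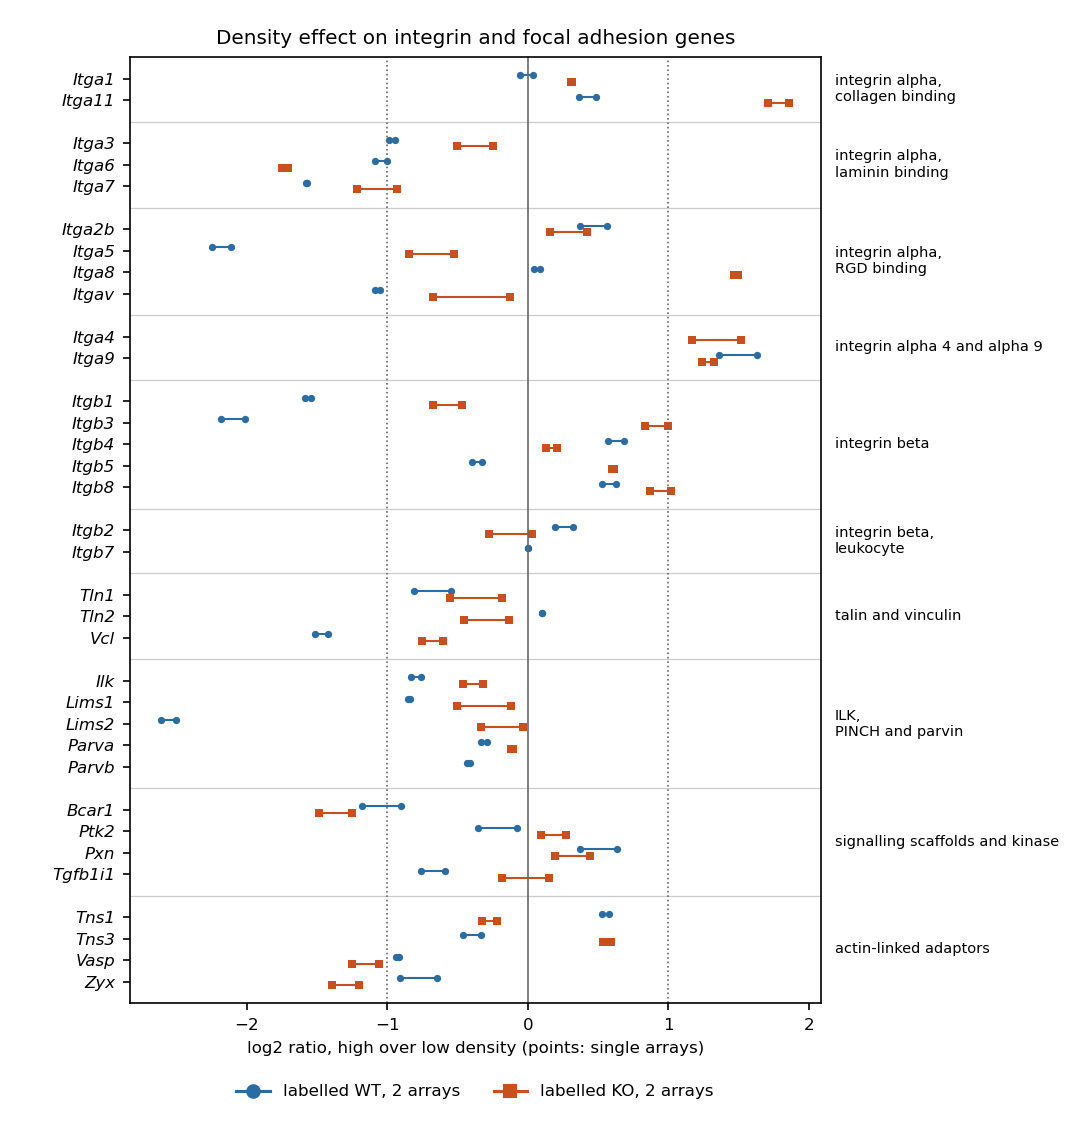
Density effect (log2 ratio of high over low density, x axis) of each member measured in at least 1 genotype, grouped by role. Circles are the 2 labelled WT arrays and squares the 2 labelled KO arrays, and dotted lines mark the 2-fold size. Lims2, Itga5 and Itgb3 lie below -2 on the labelled WT arrays and no lower than -0.85 on the labelled KO arrays, and Itga8 and Itga11 lie above 1 on the labelled KO arrays alone.

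Itga5 encodes the alpha subunit of the classical fibronectin receptor. In the labelled WT cells its signal (normalized log2 intensity on arrays 1 and 2) was 12.06 and 11.91 at low density and 9.81 and 9.79 at high density. Its values in the labelled KO cells were 9.08 and 8.94 at low density and 8.23 and 8.42 at high density. All labelled WT values thus lay above all labelled KO values, and within each genotype low density lay above high density on both arrays. The density ratio was -2.18 (single arrays -2.25 and -2.11), a 4.54-fold fall, in the labelled WT cells and -0.68 (-0.85 and -0.52) in the labelled KO cells, under the 2-fold size. Itga5 was called lower in the labelled KO cells at both densities, by -2.97 at low density (7.85-fold) and -1.47 at high density (2.78-fold). It has 1 probe, at chr15:103172625-103172684 (mm8, minus strand).

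Itgb3, the beta subunit that pairs with alpha v to bind vitronectin and other RGD proteins, was the member whose density effects differed most between the genotypes. At low density its brightest probe read 11.34 and 11.48 in the labelled WT cells and 8.56 and 8.69 in the labelled KO cells. At high density it read 9.16 and 9.47 in the labelled WT cells and 9.39 and 9.69 in the labelled KO cells. Across both dyes the genotypes thus overlapped there and not at low density, while within each dye the labelled KO cells were higher, by 0.23 and 0.22. The labelled WT cells fell by 2.10 on the log2 scale (4.28-fold), the labelled KO cells were at 0.92 on average, just under the 2-fold size, and the difference of the density effects was 3.01 (3.02 and 3.01). The genotype difference was -2.79 at low density (6.91-fold lower in the labelled KO cells) and 0.22 at high density.

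These values of Itgb3 rest on 1 of its 2 probes. The brightest lies at chr11:104486448-104486507 (mm8, plus strand). The other, at chr11:104483266-104483336, was also well above background in all 8 channels but gave -0.50 in the labelled WT cells (-0.04 and -0.96), 0.09 in the labelled KO cells (0.83 and -0.65) and -0.54 for the genotype difference at low density. Its labelled KO arrays had opposite signs and give no direction, and neither do its dyes in the genotype difference at high density (0.26 and -0.16). Its density ratio in the labelled WT cells and the genotype difference at low density had the sign of the brightest probe at a smaller size.

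**Figure D2:**
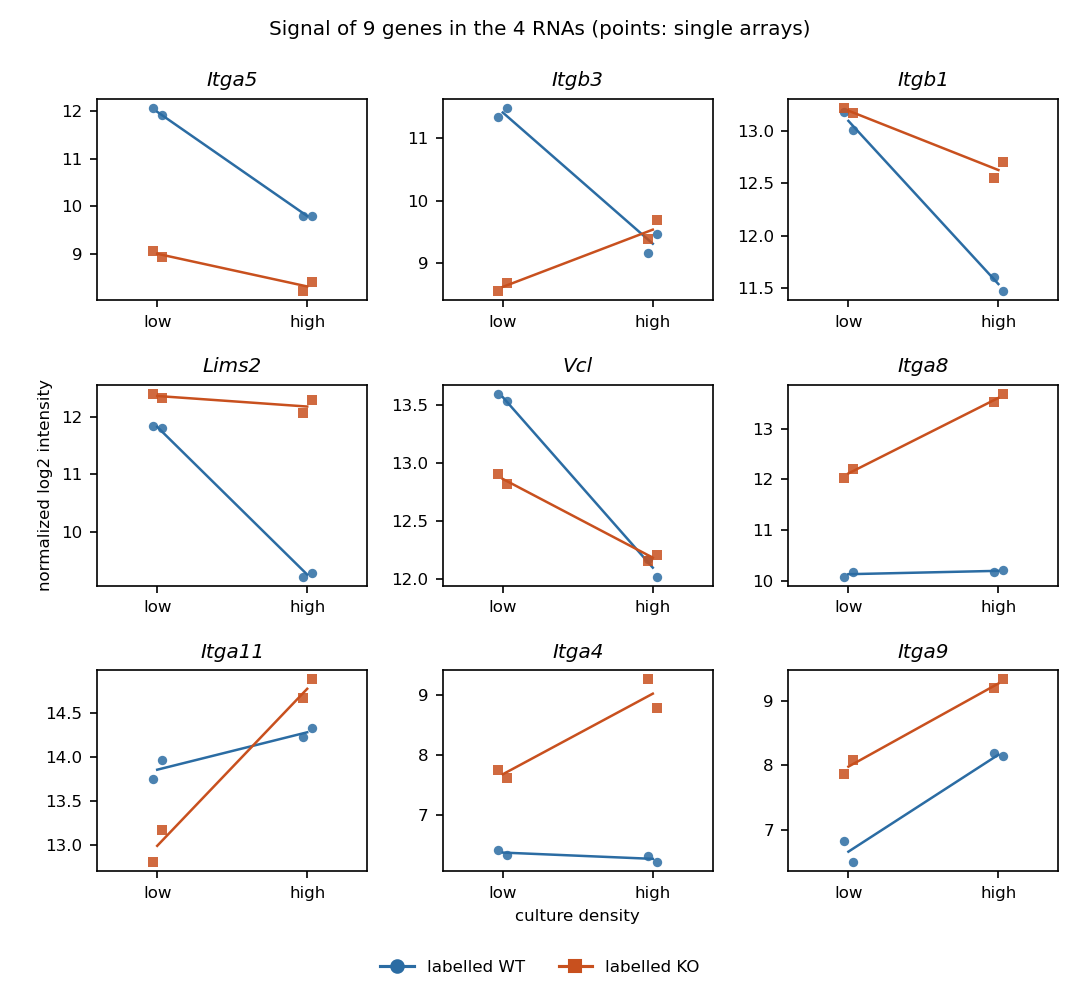
Normalized log2 intensity (y axis, a separate scale for each gene) of the brightest probe of 9 genes at low and high density (x axis). Circles are labelled WT arrays, squares labelled KO arrays and lines join the means of 2 arrays. Itgb1 starts at 13.10 and 13.20 in the labelled WT and KO cells and separates at high density, while Itgb3 starts apart and meets at high density.

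Itgb1, the beta subunit shared by most matrix-binding integrins, behaved otherwise. It read 13.19 and 13.01 in the labelled WT cells and 13.22 and 13.17 in the labelled KO cells at low density, a difference of 0.10. At high density the labelled WT cells read 11.60 and 11.47 and the labelled KO cells 12.55 and 12.71, with no overlap. The density ratio was -1.56 (-1.59 and -1.54), a 2.96-fold fall, in the labelled WT cells and -0.57 (-0.67 and -0.47) in the labelled KO cells. Under median centring the latter was -1.02 and called. The genotype difference of 1.09 at high density was called, but it was 0.95 in 1 of the dyes and under the 2-fold size in 4 of 13 alternatives. A second probe, well above background in all 8 channels, gave -1.47 and -0.74 for the density ratios and 0.58 at high density.

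Itgav, the alpha subunit of the vitronectin receptors, read 11.46 and 11.36 at low density and 10.41 and 10.27 at high density in the labelled WT cells, a ratio of -1.07. In the labelled KO cells it read 11.61 and 11.40 at low and 10.93 and 11.27 at high density, a ratio of -0.40 (-0.67 and -0.13), and the low and high density values did not overlap. Of its other 5 probes, the 2 well above background in all channels gave -0.75 and -0.31 in the labelled WT cells, so its call there was lost when the probes were averaged.

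Itga8, an RGD-binding alpha subunit known from mesenchymal and smooth muscle cells, showed the largest genotype difference among the members in the main processing. It read 10.10 and 10.19 at low density and 10.18 and 10.23 at high density in the labelled WT cells, which did not separate the densities beyond the technical SD. Values of the labelled KO cells were 12.02 and 12.22 at low density and 13.52 and 13.68 at high density, above every labelled WT value. They were thus higher by 1.98 at low density (3.94-fold) and by 3.39 at high density (10.5-fold), and their density ratio was 1.48 (1.50 and 1.47) against 0.07 in the labelled WT cells. Under median centring in place of loess the labelled KO arrays gave 2.09 and -0.02, so the call of the density ratio was lost. A second probe well above background in all 8 channels gave 1.89 and 3.26 for the genotype differences. The third probe, which was dimmer, gave 0.97 at low density, at least a 2.57-fold difference at high density, where it was not well above background in the labelled WT cells, and 0.33 for the density ratio of the labelled KO cells.

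The remaining RGD-binding alpha subunit, Itga2b of the platelet fibrinogen receptor, was dim, with means of 6.82 and 7.29 in the labelled WT cells and 6.41 and 6.70 in the labelled KO cells (low, then high density). Its density ratios were 0.47 and 0.29, under the size rule. The summed signal of 6 platelet and megakaryocyte markers was 1841 to 2029 and 3697 to 3995 in the labelled WT cells and between 581 and 634 in the labelled KO cells, with Gp9 and Gp1ba not well above background in any RNA and 2 or 3 of the 6 well above background in both dyes. Most of the sum in the labelled WT cells came from Ppbp, at means of 10.53 and 11.61 there and 7.41 and 6.48 in the labelled KO cells. Gp1bb differed between the genotypes by 0.01 and -0.11. Pf4 was well above background in both dyes in the labelled WT cells at high density alone. The part of these markers in the Itga2b values was not tested.

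Among the collagen-binding alpha subunits, Itga11, the main collagen receptor subunit of fibroblasts, was called and Itga1 was not. Itga11 read 13.74 and 13.96 at low density and 14.23 and 14.33 at high density in the labelled WT cells. In the labelled KO cells it read 12.80 and 13.17 at low density and 14.66 and 14.88 at high density, and so lay below the labelled WT cells at low and above them at high density. Its density ratio was 0.43 (0.49 and 0.36) in the labelled WT cells and 1.79 (1.86 and 1.71), a 3.45-fold rise, in the labelled KO cells. The genotype differences of -0.87 and 0.50 did not reach the size rule, while the difference of the density effects, 1.36, did. Itga1, which binds collagen IV, had density ratios of -0.01 and 0.31 and genotype differences of -0.35 and -0.03. Its probes disagreed in the genotype differences, as another probe well above background in all 8 channels gave 0.45 and 0.81.

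The laminin-binding alpha subunits Itga3, Itga6 and Itga7 were below 0 at high density in both genotypes. Itga6 read 11.81 and 11.84 at low and 10.73 and 10.83 at high density in the labelled WT cells, and 11.11 and 11.37 at low and 9.40 and 9.62 at high density in the labelled KO cells. It fell in both, by 1.04 and 1.73 on the log2 scale, though with the mean over its probes the labelled WT ratio was -0.89 and not called. Its other probes gave -1.02 and at least a 1.47-fold fall in the labelled WT cells and -1.20 and -0.89 in the labelled KO cells, the same direction. They differed in the genotype contrast at high density, where the brightest probe gave -1.27, another -0.13, and the dimmest was at least 1.29-fold higher in the labelled KO cells. That call was lost with the mean over probes (-0.33) and with no normalization between arrays (-0.99).

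Itga7, best known from muscle, read 8.45 at low and 6.87 at high density in the labelled WT cells (means of both arrays) and 8.41 and 8.47 at low and 7.48 and 7.25 at high density in the labelled KO cells. It fell by 1.58 and 1.07 on the log2 scale (array 1 of the labelled KO cells alone gave -0.93), and the genotypes differed by -0.01 at low and 0.49 at high density. A second probe, well above background in all 8 channels, fell as well (-1.60 and -1.35) but gave -0.31 and -0.06 for the genotype differences, with opposite signs in the dyes at high density. The summed signal of 6 skeletal muscle markers, of which 1 (Acta1) was well above background in both dyes in every RNA, ran the same way, at 8842 to 9012 and 2192 to 2365 in the labelled WT cells and 8172 to 8761 and 4197 to 4275 in the labelled KO cells. Its part in the Itga7 values was not tested, and Myog, Des, Ckm and Myh3 were not well above background in any RNA.

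Itga3 had density ratios of -0.97 and -0.38, under the size rule, and was called in 1 contrast. The ratio in the labelled WT cells was called in 5 of 10 alternatives, down to -1.58, that in the labelled KO cells in 2 of 9, and the genotype difference at high density, -0.89, in 5 of 12. At low density it read 8.33 and 8.28 in the labelled WT cells and 6.82 and 6.83 in the labelled KO cells, a difference of -1.48 (2.79-fold). Its other probes gave -1.36 and 0.12 there, and the call was lost when the probes were averaged.

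The related alpha subunits Itga4 and Itga9, which bind vascular cell adhesion molecule 1, fibronectin and tenascin, were higher in the labelled KO cells at both densities. Itga9 read 6.83 and 6.51 at low and 8.19 and 8.14 at high density in the labelled WT cells, and 7.87 and 8.09 at low and 9.20 and 9.33 at high density in the labelled KO cells. It rose with density by 1.50 (2.82-fold) in the labelled WT cells and by 1.28 (2.44-fold) in the labelled KO cells, and its genotype differences were 1.31 and 1.10. It was called higher at high density in both genotypes, and the difference of its density effects was -0.21, but -1.17 with the processed signals of the scanner software.

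Itga4 was not well above background in the labelled WT cells at low density and in 1 of 2 dyes at high density, where it read 6.32 and 6.21. Readings of the labelled KO cells were 7.74 and 7.61 at low density, at least 2.47-fold above the labelled WT cells, and 9.26 and 8.78 at high density, a log2 difference of 2.76 whose size is not fixed, as it ran from 1.45 to 5.24 over the alternatives. Its density ratio of 1.35 (1.52 and 1.17) in the labelled KO cells was called. The brightest probe (chr2:79131372-79131431, mm8, plus strand) and 2 others were bright enough there, and the others gave 0.86 and at least a 1.28-fold rise. At high density these others were not well above background in the labelled WT cells, and the labelled KO cells were at least 1.82-fold and 1.23-fold higher.

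Of the other beta subunits, Itgb5, which pairs with alpha v, was below 0 in the labelled WT cells (-0.36) and above 0 in the labelled KO cells (0.61) on both arrays. It read 14.59 and 14.65 at low and 14.26 at high density on both labelled WT arrays, and 15.10 and 15.33 at low and 15.72 and 15.93 at high density on the labelled KO arrays. The labelled KO cells were higher by 1.56 (2.95-fold) at high density and by 0.59 at low density. Itgb8, which activates latent transforming growth factor beta, had density ratios of 0.58 and 0.95, and Itgb4, the hemidesmosome subunit, of 0.63 and 0.17, none of them called, although Itgb8 in the labelled KO cells was called in 5 of 10 alternatives and Itgb4 in the labelled WT cells in 2 of 10.

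The leukocyte beta subunits were near background. Itgb2 read 6.24 to 6.77 and Itgb7 6.17 to 6.90 over the 8 channels, and neither was called in any contrast it could enter. With the processed signals, the genotype differences of Itgb7 were -2.30 at low and -2.50 at high density and the difference of density effects of Itgb2 was -1.16, all past the size rule. The 10 leukocyte markers had summed signals of 1247 to 1359 in the labelled WT cells and 909 to 1026 in the labelled KO cells.

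Vcl, which encodes vinculin, was the member of the talin and vinculin group that was called. It read 13.60 and 13.54 at low and 12.18 and 12.02 at high density in the labelled WT cells, a fall of 2.77-fold (log2 -1.47). In the labelled KO cells it read 12.91 and 12.82 at low and 12.16 and 12.21 at high density, a ratio of -0.68. Under median centring this ratio was -1.09 and called. At high density the genotypes overlapped and differed by 0.09, and at low density the labelled KO cells read -0.70 against the labelled WT cells. The talins, which bind integrin beta tails, had density ratios of -0.68 and -0.37 (Tln1) and 0.10 and -0.29 (Tln2) in the labelled WT and KO cells. A second bright probe of Tln2 gave a genotype difference of 1.48 at low density where the brightest gave 0.42.

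The promoters of Vcl and Itgb1 are printed because both genes fell in the labelled WT cells and hold a motif of a factor tied to the actin cytoskeleton or to the Hippo pathway within the 250 bases before the start site. RefSeq windows (GRCm38.p6, a different build from that of the probe positions) were matched by symbol for 28 of 41 members, as 34 windows. Capitals mark the CArG box, the binding motif of serum response factor, and GGAATG, the core motif of the TEAD factors that YAP and TAZ act through, each searched on both strands. Vcl, chr14:20929148-20929397, plus strand, has a CArG box from 227 to 218 bases and GGAATG from 143 to 138 bases before the start site, and for Itgb1, chr8:128685554-128685653, plus strand, GGAATG lies from 7 to 2 bases before it.
Vcl: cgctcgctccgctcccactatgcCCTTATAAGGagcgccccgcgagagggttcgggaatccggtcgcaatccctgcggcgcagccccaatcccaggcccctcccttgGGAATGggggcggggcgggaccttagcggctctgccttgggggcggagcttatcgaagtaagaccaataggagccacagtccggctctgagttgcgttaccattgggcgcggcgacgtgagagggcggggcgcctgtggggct
Itgb1: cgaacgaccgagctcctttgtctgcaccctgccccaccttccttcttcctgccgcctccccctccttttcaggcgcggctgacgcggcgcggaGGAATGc

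The CArG box was in 2 of 34 member windows (5.88%), those of Vcl and Itgb6, against 1.47% of 32851 promoter windows of the same length. GGAATG was in 3 of 34 (8.82%), those of Itga10, Itgb1 and Vcl, against 12.6% of all windows. The AP-1 motif TGANTCA was in 2 of 34 (5.88%), those of Zyx and Itgax, against 6.75%. The motifs do not overlap in these windows, a match is not evidence of binding, and 13 of 41 members, Lims2 and Itgb3 among them, had no window.

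Within the complex of ILK, PINCH and parvin, Lims2, which encodes PINCH2, stood apart from the rest. It read 11.84 and 11.81 at low and 9.23 and 9.30 at high density in the labelled WT cells, a 5.89-fold fall (log2 -2.56). Values of the labelled KO cells were 12.40 and 12.32 at low and 12.07 and 12.29 at high density, a ratio of -0.18 (-0.33 and -0.03). The labelled KO cells were thus 7.52-fold higher at high density (log2 2.91) and at 0.53 at low density, and the difference of the density effects was 2.38 (2.28 and 2.47). Lims2 was called in the same 3 contrasts under every alternative with the 2-fold size.

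No other gene of that complex was called, although under median centring Ilk (-1.05) and Lims1 (-1.07) were in the labelled WT cells, and Parvb, near background, was in 2 of 9 alternatives for the same contrast and in 3 of 12 for the genotype difference at low density. The density ratios in the labelled WT cells were -0.80 for the kinase-like scaffold Ilk, -0.85 for Lims1, the PINCH1 gene, and -0.31 for the actin-binding Parva. In the labelled KO cells they were -0.39, -0.31 and -0.11. Parvb was well above background in the labelled WT cells at low density alone, where it was at least 1.34-fold above high density and at least 1.58-fold above the labelled KO cells. A second bright probe of Parva gave -0.75 and -0.97, and its genotype differences were -0.49 and -0.71 where the brightest gave 0.33 and 0.53.

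Of the signalling scaffolds and the kinase, Bcar1 (p130Cas, a docking protein phosphorylated at adhesions) was called in both genotypes. It read 13.46 and 13.33 at low and 12.28 and 12.42 at high density in the labelled WT cells and 13.06 and 12.81 at low and 11.57 and 11.56 at high density in the labelled KO cells, falls of 2.06-fold and 2.58-fold. In the labelled WT cells its call rested on array 1, as array 2 alone gave -0.90. Pxn, the scaffold paxillin, had ratios of 0.50 and 0.32 and Ptk2, the focal adhesion kinase, of -0.22 and 0.18. Ptk2 was lower in the labelled KO cells by -0.99 at low density, just under the 2-fold size and called in 5 of 13 alternatives, and its other probes gave -0.89 and -0.50. Tgfb1i1 (Hic-5, a paxillin relative) had ratios of -0.67 and -0.01.

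The actin-linked adaptors Zyx and Vasp, which act together in actin assembly at adhesions, passed the size rule in the labelled KO cells. Zyx read 15.34 and 15.25 at low and 13.94 and 14.05 at high density there, a 2.46-fold fall. In the labelled WT cells it read 16.02 and 16.06 at low and 15.38 and 15.15 at high density, a ratio of -0.78, and at high density the labelled KO cells were lower by -1.26. Vasp fell 2.23-fold in the labelled KO cells (log2 -1.16), with -0.93 in the labelled WT cells, which was called in 3 of 10 alternatives. Its genotype difference at high density was -0.97, called in 3 of 13. The differences of the density effects of Zyx (-0.52) and Vasp (-0.23) did not reach the size rule, so these calls do not separate the genotypes.

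The tensins Tns1 and Tns3, which tie actin to the integrin tail, were not called in either density contrast. Tns1 was at 0.55 in the labelled WT cells and -0.27 in the labelled KO cells, and Tns3 at -0.40 and 0.57, with the same sign on both arrays each time. Tns3 was called higher in the labelled KO cells at high density (1.01) and Tns1 at low density (1.03), both at the edge of the size rule. Tns1 was at 0.99 in 1 of the dyes, and the call of Tns3 was lost in 4 of 13 alternatives, down to 0.63 with the mean over its probes. The probes of Tns1 disagreed. In the labelled WT cells the 4 that were well above background in all channels gave between -0.55 and 0.70, and at low density their genotype differences lay between 0.40 and 2.02.

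**Figure D3:**
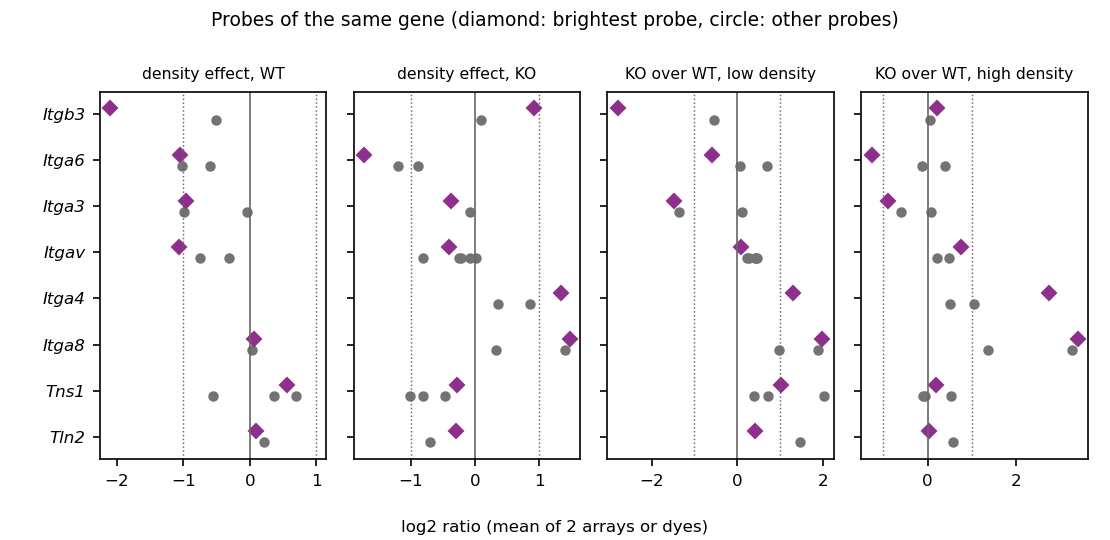
Log2 ratios (x axes, a separate scale in each panel) of all measurable probes of 8 members (rows). Diamonds are the brightest probes, circles the others, and dotted lines mark the 2-fold size. The probes of Itgb3 differ by 1.60 in the labelled WT density ratio (-2.10 and -0.50), and those of Tns1 lie on both sides of 0.

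Set side by side, the density effects of the genotypes differed by at least 2-fold in 5 of 31 members, all in the same direction, higher in the labelled KO cells, and in 0 members in the other. Over all genes 4.8% were called higher and 5.41% lower in this contrast. The called members were Itgb3 (3.01), Lims2 (2.38), Itga5 (1.50), Itga8 (1.42) and Itga11 (1.36). For Itga5 and Lims2 the fall seen in the labelled WT cells was smaller, and for Itga8 and Itga11 the labelled KO cells rose where the labelled WT cells were at 0.07 and 0.43. Itgb1 (0.99), Itgb5 (0.97) and Tns3 (0.96) lay just under the size rule. The median difference was 0.40 over the members, between 0.24 and 0.45 under the alternatives, and 0.01 over all genes. Under median centring the counts were 5 and 1, and with the processed signals 7 and 2.

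**Figure D4:**
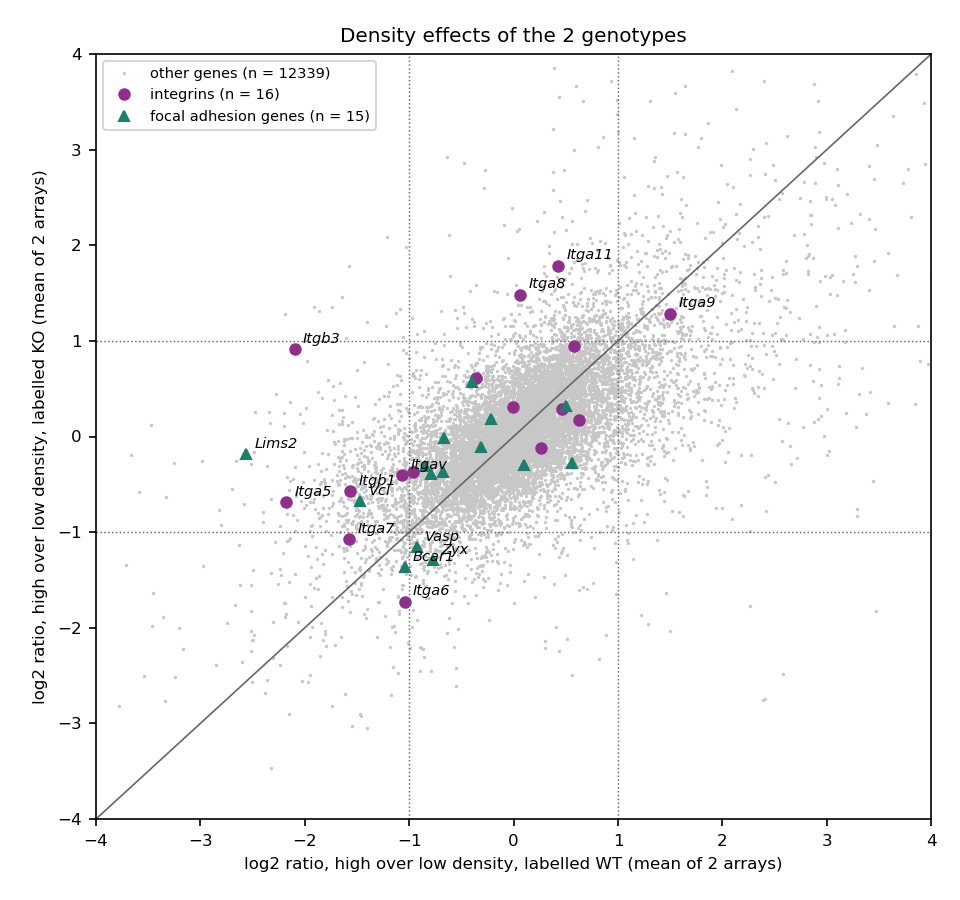
Density effect in the labelled WT cells (x axis) against that in the labelled KO cells (y axis), both as mean log2 ratios of 2 arrays. Large circles are 16 integrins, triangles 15 focal adhesion genes and grey points 12339 other genes, of which 40 lie outside the axes; the line marks equal effects. Itgb3, Lims2, Itga5, Itga8 and Itga11 lie above the line by more than 1.

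At low density, 4 of 34 members were called higher and 3 lower in the labelled KO cells than in the labelled WT cells, among 7.68% of all genes higher and 9.06% lower. The genes higher were Itga8, Itga9, Itga4 and Tns1 and those lower Itga5, Itgb3 and Itga3. The focal adhesion genes were mostly below 0 without a call, with 6 of 16 above 0 and a median of -0.56. The median over all members was -0.41, against 0.01 over all genes, and was -0.17 with no filter on dim probes and -0.19 with no normalization between arrays. With the processed signals the counts were 4 and 7.

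At high density, 7 of 33 members were called higher and 3 lower, among 6.84% and 8.52% of all genes. The genes higher were Itga8, Lims2, Itga4, Itgb5, Itga9, Itgb1 and Tns3, and those lower Itga5, Itga6 and Zyx. The median over the members was 0.03, and 0.13 with the mean over probes and 0.32 with no normalization between arrays. Itga4, Itga8, Itga9 (higher) and Itga5 (lower) were called at both densities, which is 4 of 7 calls at low and 4 of 10 at high density, where 49.7% and 53% of the calls over all genes were shared. With the processed signals the counts were 6 and 7.

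**Figure D5:**
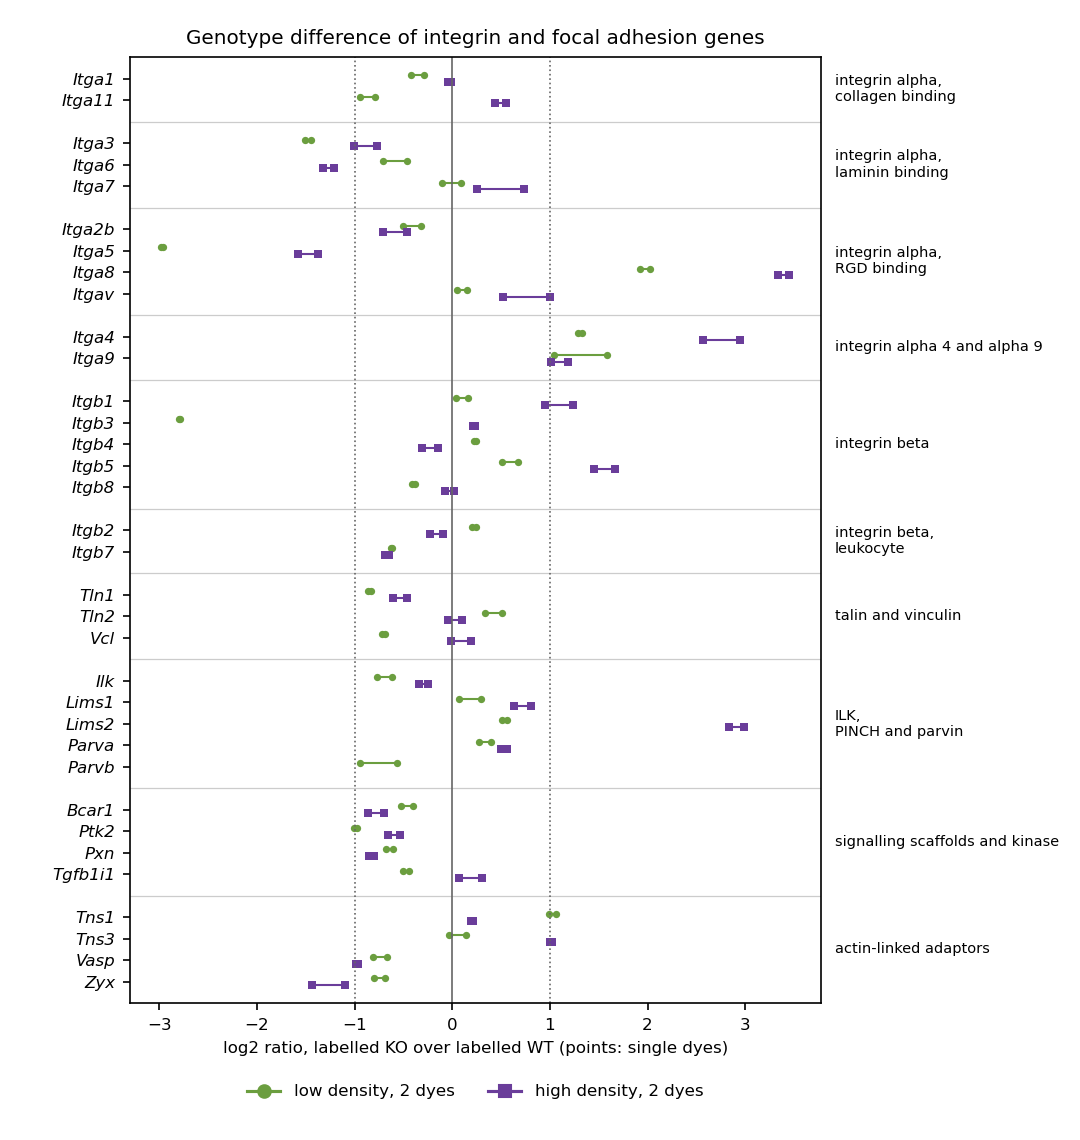
Genotype difference (log2 ratio of labelled KO over labelled WT, x axis) of each member measured at 1 density or more, grouped by role. Circles are the 2 dyes at low density, squares the 2 dyes at high density, and dotted lines mark the 2-fold size. Itga5 and Itgb3 lie below -2.7 at low density, and Itga8 and Lims2 above 2.8 at high density.

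A further list held 40 other genes of the adhesion pathway, 39 of them on the arrays. In the labelled WT cells 1 of 36 measured was called higher and 10 lower at high density, with a median of -0.33, where the shares over all genes were 10.2% and 6.64%. Among the falls was that of Ajuba, a LIM protein that also binds LATS kinases (-2.58), and the rise was that of Tns2, a further tensin (1.24). In the labelled KO cells 2 were called higher, Nedd9, a relative of p130Cas (1.33), and Evl, a relative of Vasp (1.07), and 3 lower, Actn4 (-1.15) and Actn1 (-1.10), which encode the actinins, and Asap1 (-1.07), of 36 measured and beside 7.54% and 4.22% of all genes.

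The density effects of this list differed upward in 7 of 36 genes, Nedd9 (2.42) and Ajuba (1.88) among them, and downward in 0, beside 4.8% and 5.41% of all genes. Fermt2, which encodes kindlin-2, the partner of talin at the beta tail, had a density ratio of -1.67 in the labelled WT cells and -0.36 in the labelled KO cells. At low density 2 genes were called higher in the labelled KO cells (Itgb1bp1, 1.70, and Nedd9, 1.32) and 3 lower (Pak1, -1.42, Enah, -1.34, and Pdlim7, at the 2-fold size), against 7.68% and 9.06% of all genes. At high density 3 were called higher (Nedd9, 3.74, Ajuba, 1.43, and Fermt2, 1.14) and 1 lower (Tns2, -1.18), against 6.84% and 8.52% of all genes.

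The 22 genes of matrix proteins and other ligands that integrins bind varied more widely than the receptors. In the labelled WT cells 5 of 20 were called higher and 5 lower at high density, beside 10.2% and 6.64% of all genes. Postn, the integrin ligand periostin (5.02), Col3a1, a fibrillar collagen (4.14), and Lama4, a laminin chain (3.85), rose most, and Thbs1, thrombospondin 1 (-3.45), Lama5, a further laminin chain (-2.23), and Tnc, tenascin C (-1.98), fell most. In the labelled KO cells 7 of 19 were called higher and 3 lower (7.54% and 4.22% of all genes), with Lama4 (3.79), Col3a1 (3.44) and Col1a2 (2.25) at the top and Spp1, osteopontin (-4.18), Thbs1 (-1.64) and Col4a1, a basement membrane collagen (-1.02), at the bottom.

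Fn1, the fibronectin gene and so the ligand of the Itga5 product, was at -1.60 in the labelled WT cells and 1.03 in the labelled KO cells. The difference of its density effects, 2.63, was called together with those of Tnc (2.77) and Thbs1 (1.82), 9 of 19 ligand genes being higher in this contrast and 4 lower (4.8% and 5.41% of all genes), with Postn (-3.08), Spp1 (-2.76) and Vcam1 (-1.53) the lowest. Comparing genotypes, 4 ligand genes were called higher and 4 lower of 19 at low density, led by Postn (5.74) and Lama5 (-4.95), beside 7.68% and 9.06% of all genes. At high density 8 were higher and 3 lower of 20, led by Postn (2.66) and Spp1 (-5.22), beside 6.84% and 8.52% of all genes.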

How the data were processed

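Expression in MEFs was measured on 4 two-colour Agilent arrays of the mouse genome. The authors processed the scans with the software Agilent Feature Extraction, version 10.5.1.1 in the submitters' processing notes. Per the file headers, the deposited scanner files hold mean spot intensity, median local background and flags of 0 or 1, with processed signals and a log10 ratio of Cy5 over Cy3 made by that software. The deposited series matrix holds the same log10 ratio, rounded to within 0.005 and turned to high over low density. The values given here start from the raw intensity and were made in limma 3.58.1 under R 4.3.3 (data.table, version 1.17.8, and statmod 1.5.0): normexp background correction with an offset of 50, which shrinks ratios of dim probes, loess within arrays and, for genotype contrasts, Aquantile between arrays with comparison within a dye. Control spots and flagged outlier probes were dropped. To enter a contrast, a probe had to be well above background in both readings of at least 1 of the RNAs compared, and the contrast of density effects took probes that entered both density contrasts. For bounds, the dim side of a ratio took in each channel the measured signal or the lowest signal that carried the flag, whichever was higher. The mean over both readings was used. Where the measured signal was the higher, the bound equals the measured ratio, as for the brightest Itga4 probe at low density (2.47-fold). Each gene was read by its brightest probe, and values of other probes are given beside some of them. Summaries used Python 3.11.15 with numpy 2.4.6 and pandas 2.3.3. The number of arrays limits the precision. No test was run, as each genotype and density has 1 replicate. Probe positions and names are those of the array annotation (mm8), and all 41 member symbols were found in RefSeq.

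The members and lists (roles, 40 other adhesion pathway genes, 22 integrin ligands, and markers of fibroblasts, leukocytes, platelets, endothelium, epithelium and skeletal muscle) were chosen with earlier results of these data known. Every member is accounted for, and of the pathway and ligand lists the 3 largest rises and falls among called genes per contrast could be named. Epithelial markers had summed signals of 494 to 695 and endothelial markers of 452 to 506 in the labelled WT cells and 9793 to 17436 in the labelled KO cells, where 1 of 7, Ptprb, was well above background in both dyes. Alternatives were median centring, an offset of 16, no background correction, the processed signals, a 1.4-fold size, other filters, the mean over probes, other scaling between arrays, the series matrix, and leaving out each array. Some genes of the further adhesion list are counted but not named here.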

Additional observations from a re-analysis of the deposited data

Results flagged for a closer look

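The density effects of 6 members had opposite signs on both labelled WT arrays and both labelled KO arrays, and none of these differences was tested. For Itgb5 and Ptk2 in the labelled KO cells and Tln2 in the labelled WT cells, the sign of the density effect turned under 1 alternative each (to -0.084, -0.11 and -0.073). The density effect of the labelled KO cells less that of the labelled WT cells was, on the log2 scale, 3.01 for Itgb3, 0.97 for Itgb5, 0.40 for Ptk2, -0.39 for Tln2, -0.83 for Tns1 and 0.96 for Tns3. Of the 6, Itgb3 reached the 2-fold size, and its second probe gave 0.59.

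The genotype differences of 5 members had opposite signs in both dyes at low and at high density, and these differences were not tested either. The difference at high density less that at low density was 1.36 for Itga11, -0.38 for Itgb2, 3.01 for Itgb3, -0.46 for Itgb4 and 0.66 for Tgfb1i1. Those of Itgb2 and Itgb4 arose from genotype differences of 0.23 or less in size, and Itgb2 was not well above background in the labelled WT cells at low density. The genotype differences of Itgb3 (0.22) and Tgfb1i1 (0.18) at high density were small too, and the second Itgb3 probe gave no direction there. That of Itgb2 at high density turned sign under 1 alternative (to 0.013).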

How the results depend on the processing

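Of 41 calls of members over the 5 contrasts, 30 were made under every alternative with the 2-fold size that the gene could enter, 11 were lost under 1 alternative or more, and 0 changed sign, while 26 of 122 values not called were called under 1 alternative or more. Among the 30 are the genotype calls of Itga4, which could not enter when every channel had to be well above background. Under that filter 6 and 9 members were called at low and high density. A single array decided the calls of Bcar1 (density, -0.90 without WT replicate 1), Itga7 (density, -0.93 without KO replicate 2), Tns1 (genotype, low density, 0.99 without replicate 1 of either genotype) and Itgb1 (genotype, high density, 0.95 without replicate 2 of either genotype). With a 1.4-fold size the members called were 21 of 33 (density, labelled WT), 16 of 32 (density, labelled KO), 17 of 31 (difference of density effects), 20 of 34 (genotype, low density) and 23 of 33 (genotype, high density), beside 43.6%, 37.8%, 32.4%, 44.1% and 40.7% of all genes at that size. With the processed signals they were 9 for the difference of density effects and 11 for the genotype difference at low density, against 5 and 7. All other totals were within 1.5 times the main ones, but by direction, the genotype calls lower in the labelled KO cells went from 3 to 5 at low density (offset of 16, no background correction) and from 3 to 6, 5 and 7 at high density (the same and the processed signals), and the density calls higher in the labelled WT cells from 1 to 2 (processed signals, series matrix). Leaving out each array in turn gave 9 to 10 and 9 calls for the density effects, 5 to 7 for their difference, and 6 to 8 and 9 to 12 for the genotype differences at low and high density, where an array went together with its partner of the same dye. The median over members of the genotype difference at high density, 0.03, changed sign to -0.054 with no filter on dim probes and to -0.017 without replicate 2 of either genotype, and lay between -0.017 and 0.102 over all arrays left out. Median centring moved the median of all genes from 0.06 to -0.07 and from 0.05 to -0.11 in the density contrasts, and leaving out the scaling between arrays moved it from 0.01 to 0.26 and 0.25 in the genotype contrasts. The cause of these changes was not tested, except that a smaller size calls more genes by construction. No paired analysis was possible because each genotype and density has 1 replicate. Dim signals limit the leukocyte subunits, Itga4 and Parvb.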
